A study of Danio rerio with 4 samples.

Results

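The sarcomere is the repeating contractile unit of striated muscle. Myosin heavy and light chains of the thick filament pull on thin filaments of actin, which tropomyosin and the troponins gate by calcium, and titin and the proteins of the Z-disc and M-band hold both filament systems in place. In cardiomyocytes, calcium enters through voltage-gated channels, is released from the sarcoplasmic reticulum through the ryanodine receptor, and is taken up again by SERCA2 under the control of phospholamban. These genes are the classical markers of heart muscle, and endothelial cells are not known for making a sarcomere.

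The genes described here were 39 zebrafish symbols for sarcomere, Z-disc, calcium handling, natriuretic peptide and muscle energy genes, of which 38 were matched to 1 of the 32520 genes in the count tables. *myom2b* was not matched. Of the 38, 36 had enough counts to be tested. *myl4* and *myl10*, both myosin light chains, had at most 10 counts in any library and were not tested. The data were RNA-seq counts of endothelial cells sorted by green fluorescence from zebrafish ventricles at 7 days post-amputation (dpa), from which the study had removed the atrium and the outflow tract. The CtrlK fish carried *kdrl-eGFP* and, behind the *ubi* promoter, a loxp-DsRed-STOP-loxp cassette followed by DN-xBrg1, and the DNK fish carried *kdrl:CreER* in addition. By the labels, both groups received 4-HT (4-hydroxytamoxifen) over 3 days and were then amputated. The results of the study likewise place the start of 4-HT at 3 days before resection. Its methods describe another schedule, so the duration is uncertain. The treatment acts on CreER, so that a dominant-negative form of the chromatin remodeler Brg1 could be switched on only in DNK, in cells in which the *kdrl* promoter drives CreER. Each group had 2 libraries, each from pooled ventricles, described as biological replicates, and the age of the adult fish was not given in the sources used here.

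The libraries held 25189862 to 28770727 counts, at which 3 counts corresponded to a CPM (count per 1000000 counts) of 0.104 to 0.119. Of 15 endothelial markers 14 were matched, all with at least 522 counts in every library (the lowest was *plvapb* in DNK2), and their sum was 0.612% and 0.696% of the counts in CtrlK and 0.599% and 0.591% in DNK. Across all genes, edgeR's quasi-likelihood test called 723 of 17151 tested genes higher and 726 lower in DNK at a Benjamini-Hochberg adjusted p under 0.05. These shares of 4.22% and 4.23% are the background for the counts of edgeR calls below, and "called", "rose" and "fell" refer to this test. Of the 14 endothelial markers, 4 fell (*plvapb*, *kdrl*, *egfl7* and *pecam1*) and *flt1* rose, and 11 had a negative log2 fold change. The dominant-negative transgene itself was not analysed here.

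Heart muscle transcripts were present in all 4 libraries and took a very different share of each. Without *mb*, the myoglobin gene, the members made up 2.02% (CtrlK1) and 0.691% (CtrlK2) of the control counts and 0.248% (DNK1) and 0.0818% (DNK2) of the DNK counts. In DNK2 the tropomyosin gene *tpm4a* held 14759 of these 21763 counts. With *tpm4a*, *slc8a1a* and *nppb* also left out, a choice made after seeing the data, the shares were 1.89% and 0.607% in CtrlK. In DNK they were 0.179% and 0.0205%. The 2 DNK libraries lay below both CtrlK libraries, but the libraries within each group were also several-fold apart. *mb* alone kept the full sum of all members at 3.19%, 1.84%, 1.94% and 1.86%, in the same order of libraries. Bulk counts such as these do not show from which cells the transcripts came. Fewer cardiomyocytes among the sorted cells and less of their RNA per cell cannot be told apart from each other or from other sources, and none was tested.

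**Figure D1:**
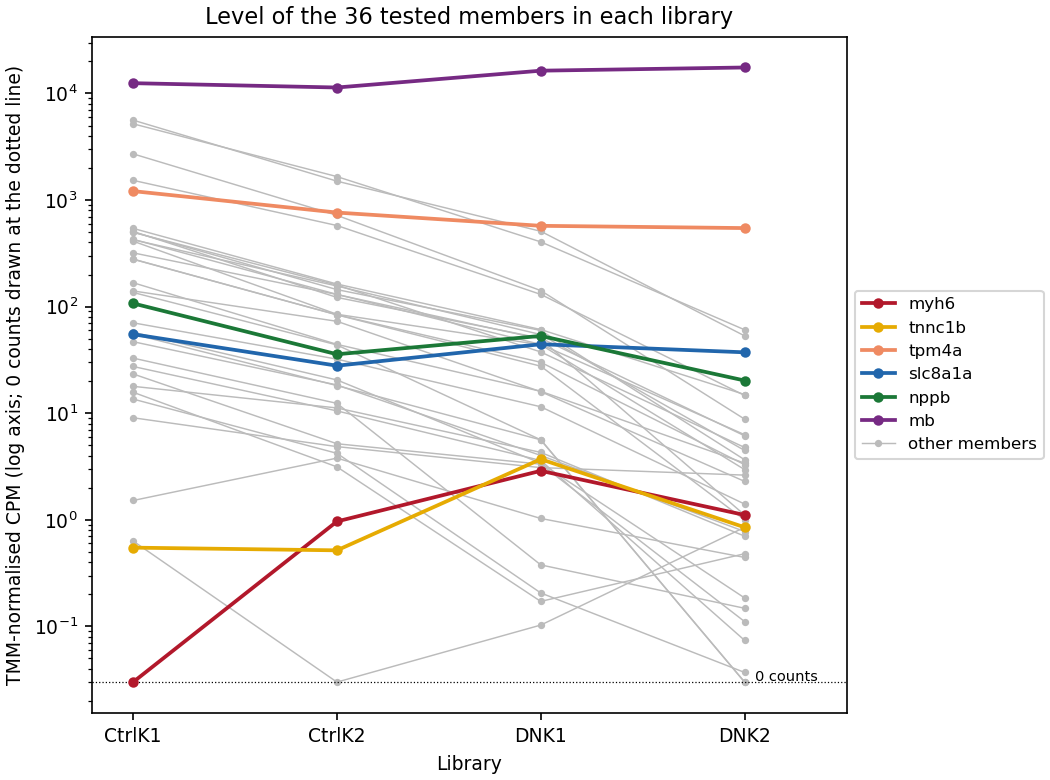
TMM-normalised CPM (log axis) of the 36 tested members in the 4 libraries. Each line joins the values of 1 gene and implies no order of the replicates, and 6 members are coloured. Most grey lines slope down from CtrlK1 to DNK2, whereas *mb* lies between 11368 and 17519 CPM in all libraries and *slc8a1a* between 27.9 and 55.0 CPM.

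Of the 36 tested members, 32 had a negative and 4 a positive log2 fold change (DNK over CtrlK), with a median of -3.42 against -0.02 over all tested genes. Both DNK libraries lay below both CtrlK libraries in 30 of 36 members and above them in 3, whereas the same held for 28.6% and 26.9% of all tested genes. In spite of this, edgeR called only *tcap*, *nexn* and *hrc* lower and *mb* higher, which is 3 and 1 of 36. At an unadjusted p under 0.05 there were 7 members lower and 1 higher, against 12.6% and 11.3% of all tested genes. Members such as *myl7*, with a mean 12.7-fold lower in DNK, were not called. Their standard errors, derived from the same test, were more than 1 log2 unit. DESeq2 on the same genes called 13 of 36 members lower (8.35% of all tested genes) and *mb* higher (7.41%). Beside *tcap*, *nexn* and *hrc*, those lower by DESeq2 were *vmhc*, *myh7*, *cmlc1*, *actc1a*, *actn2b*, *ldb3b*, *ryr2b*, *atp2a2a*, *desma* and *ckma*.

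In the thick filament, the light chains gave the clearest example. *myl7* (ENSDARG00000019096), the cardiac regulatory light chain, had 133259 and 43635 counts in CtrlK and 14843 and 1438 counts in DNK. The groups did not overlap, yet the 2 DNK libraries differed more from each other than DNK1 did from CtrlK2. Its log2 fold change was -3.66 ± 1.85 (SE, n = 2 per group; edgeR adjusted p = 0.43). *cmlc1*, the cardiac essential light chain, had 36293 and 16729 counts in CtrlK and 3796 and 397 in DNK (log2 fold change -3.86, edgeR adjusted p = 0.37). It too was highest in CtrlK1 and lowest in DNK2. *smyhc1*, a slow myosin heavy chain known from slow skeletal muscle, had 15 and 0 counts in CtrlK and 3 and 23 in DNK, so its groups overlapped at a very low level.

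The atrial heavy chain and the genes taken as ventricular had fold changes of opposite sign. None of them was called by edgeR, whereas DESeq2 called both genes taken as ventricular lower. *myh6* (ENSDARG00000090637), the atrial myosin heavy chain of zebrafish, had 0 and 28 counts in CtrlK and 84 and 30 in DNK. The groups did not overlap, although DNK2 exceeded CtrlK2 by only 2 counts, and the 0 in CtrlK1 allows a level of up to 0.119 CPM. The log2 fold change of 2.02 ± 1.49 was not called (edgeR adjusted p = 0.48). The ventricular heavy chain was read from a pair of neighbouring genes, of which the gene taken as *vmhc* (ENSDARG00000079564) had 424 and 325 counts in CtrlK and 125 and 19 in DNK. The gene taken as *myh7* (ENSDARG00000079782) had 64303 and 20845 counts in CtrlK and 4123 and 238 in DNK. Both were lower in DNK in every pair of libraries, with log2 fold changes of -2.53 ± 0.83 and -4.51 ± 2.17 (edgeR adjusted p = 0.15 and 0.41, DESeq2 adjusted p = 0.0050 and 0.024). With 1 library left out, the lone library of its group is assumed to vary like the other group. On that assumption *vmhc* had an edgeR adjusted p of 0.0084 without DNK1, and of 0.40, 0.33 and 0.084 without CtrlK1, CtrlK2 and DNK2. In the gene names used here, the gene taken as *vmhc* carried the human-style symbol MYH6 and its neighbour MYH7. RefSeq lists *vmhc* as an older name of *myh7*. Both names of the pair, and that both genes are ventricular, are therefore uncertain, as is every comparison with *myh6* that rests on them. A further symbol, *myh7l*, pointed to a gene already taken for a member and was left out.

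Within a library, a ratio of 2 genes needs no scaling. With 0.5 added to each count, the log2 ratio of *myh6* to *vmhc* was -9.73 and -3.51 in the CtrlK libraries (replicates 1 and 2) and -0.57 and 0.65 in the DNK libraries. The balance thus lay further towards the atrial gene in both DNK libraries than in either CtrlK library. The difference of the means was 6.66 (two-sided exact permutation p = 0.33, which is the smallest value 2 libraries against 2 allow). Against the sum of *vmhc* and *myh7*, *myh6* had 0 and 1.32 counts per 1000 in CtrlK and 19.8 and 116.7 per 1000 in DNK. The highest ratio, in DNK2, came with a sum of only 257 *vmhc* and *myh7* counts, against 64727 in CtrlK1, while *myh6* itself was at 30 counts. *vmhc* and *myh7* did not keep 1 proportion either: their log2 ratio (*myh7* over *vmhc*) was 7.24 in CtrlK1, 5.04 in DNK1 and 3.65 in DNK2, with CtrlK2 between CtrlK1 and DNK1.

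**Figure D2:**
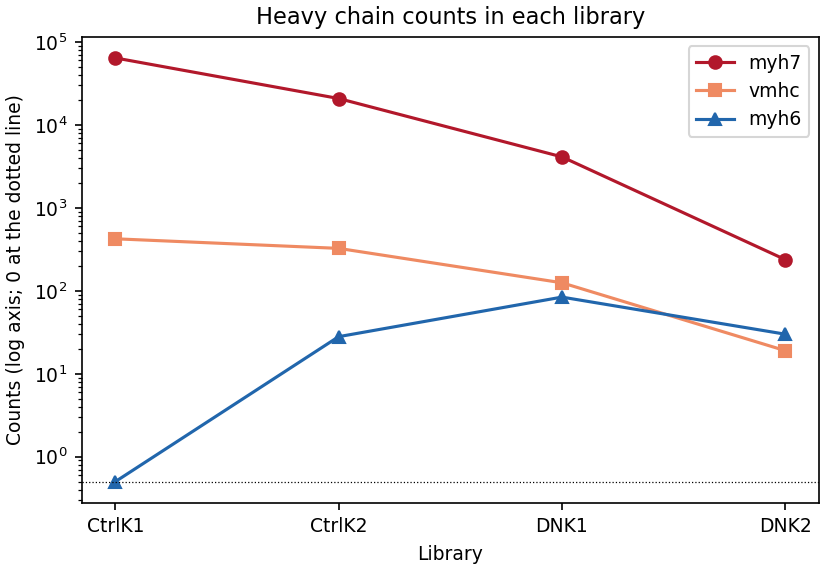
Raw counts (log axis) of *myh7* and *vmhc*, the genes taken as ventricular, and of the atrial gene *myh6* in the 4 libraries, which differ little in depth. *myh7* runs from 64303 to 238 counts, while *myh6* stays between 0 and 84 counts.

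Among the thin filament genes, cardiac actin and the main troponins followed *myl7*. *actc1a*, cardiac actin, had 123096 and 48150 counts in CtrlK and 11799 and 1640 in DNK. *tnnt2a*, cardiac troponin T, had 10062 and 4528 counts in CtrlK and 1594 and 121 in DNK. The 4 values of each gene had the same order of libraries as those of *myl7*. The troponin I gene *tnni1b* and the troponin C gene *tnnc1a* gave log2 fold changes of -3.47 and -3.40, and none of these 4 genes was called by edgeR (adjusted p between 0.36 and 0.49).

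The second troponin C gene and the tropomyosins did otherwise. *tnnc1b* had 13 and 15 counts in CtrlK and 108 and 23 in DNK, so that both DNK libraries were higher and DNK1 stood far above the other 3 (log2 fold change 2.09 ± 0.94, edgeR adjusted p = 0.23). *tpm4a*, a tropomyosin gene, had 28763 and 22141 counts in CtrlK and 16704 and 14759 in DNK. The groups did not overlap, but the whole range was 2.22-fold between the normalised counts of CtrlK1 and DNK2, against 106-fold for *myl7*. Its log2 fold change of -0.82 ± 0.24 was not called (edgeR adjusted p = 0.14), and with the lone CtrlK1 as control, without CtrlK2, the adjusted p was 0.0020, against 0.058, 0.43 and 0.53 without CtrlK1, DNK1 and DNK2. *tpm1* had 215 and 141 counts in CtrlK and 90 and 71 in DNK, likewise without overlap and with a narrow range (log2 fold change -1.28 ± 0.45, adjusted p = 0.14).

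Of the Z-disc and M-band genes, all 12 that were tested had a negative log2 fold change, and 2 fell in DNK. *tcap* (ENSDARG00000007344), which encodes the titin cap protein telethonin, had 780 and 359 counts in CtrlK and 11 and 4 counts in DNK. Both DNK libraries were close to 0 and far below both CtrlK libraries, and normalised counts averaged 615 ± 394 against 7.14 ± 4.41 (SD, n = 2 each). The log2 fold change was -6.39 ± 0.69 (edgeR adjusted p = 0.0035). *nexn* (ENSDARG00000057317), encoding the Z-disc protein nexilin, had 373 and 91 counts in CtrlK and 5 and 13 counts in DNK. Here DNK2 was not the lowest library, in contrast to most members, and the groups were well apart (log2 fold change -4.84 ± 0.97, edgeR adjusted p = 0.033). The call of *tcap* was lost only when DNK2 was left out (adjusted p = 0.067), but that of *nexn* was lost without CtrlK1 (0.20), without DNK1 (0.21) and without DNK2 (0.20).

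The other 10 tested genes of this group were not called by edgeR, and DESeq2 called *actn2b*, *ldb3b* and *desma* lower (adjusted p = 0.041, 0.032 and 0.049). The titin genes *ttn.1* and *ttn.2*, told apart only by their order, had log2 fold changes of -3.44 and -3.47, and *actn2b*, the alpha-actinin of the Z-disc, of -3.44. *desma*, the desmin of muscle intermediate filaments, had 1364 and 595 counts in CtrlK and 99 and 5 in DNK, and *csrp3*, muscle LIM protein, had 651 and 305 in CtrlK and 105 and 2 in DNK. Both were lowest in DNK2, with under 10 counts, and *csrp3* had an edgeR adjusted p of 0.031 without DNK1, where DNK2 with its 2 counts is the lone DNK library, and of 0.20 to 0.72 without 1 of the other libraries. *mybpc3* (cardiac myosin binding protein C), *myom1b* (a myomesin of the M-band) and the Cypher genes *ldb3a* and *ldb3b* lay between -3.66 and -2.98. *cmya5* differed from these, with 36 and 110 counts in CtrlK and 30 and 12 in DNK, so that CtrlK2 was the highest library and CtrlK1 lay near DNK1.

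**Figure D3:**
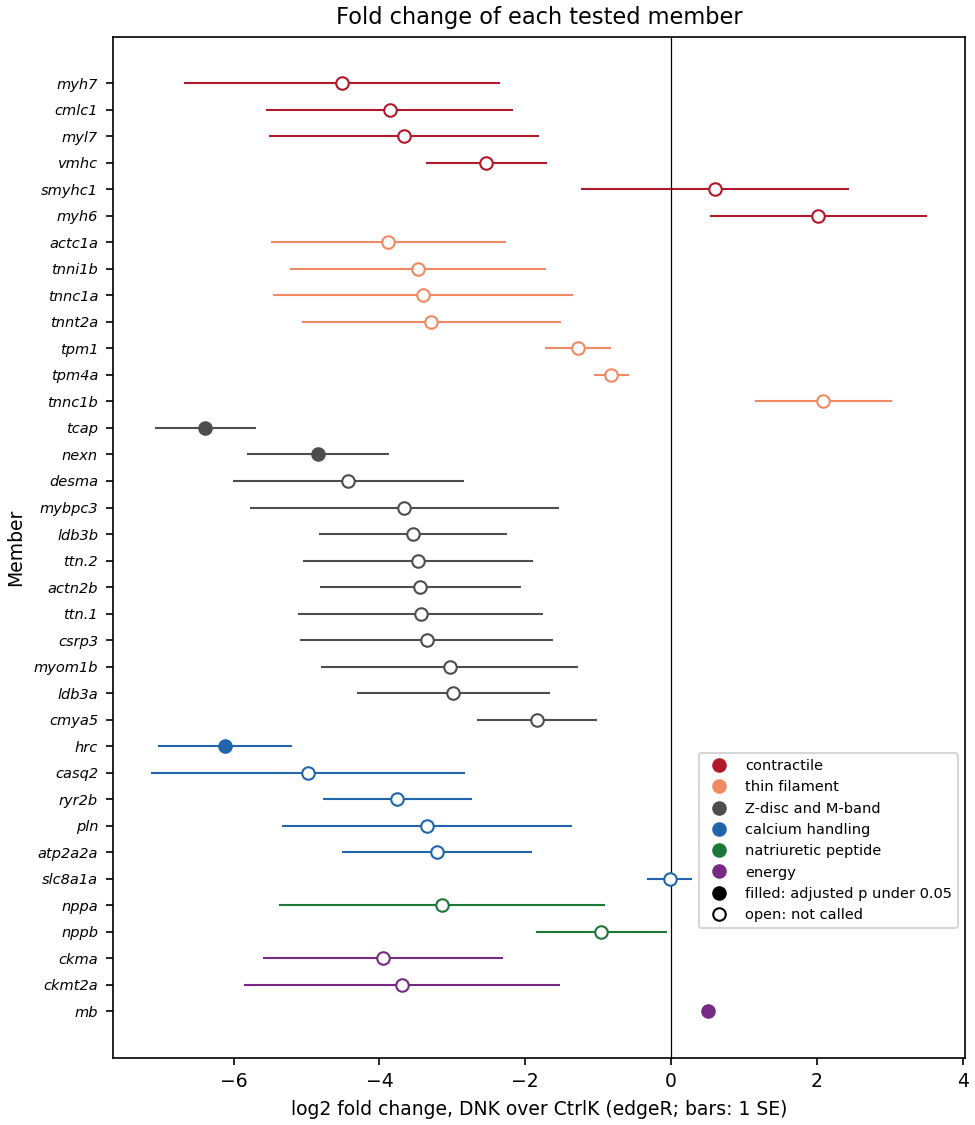
edgeR log2 fold change (DNK over CtrlK) of the 36 tested members, coloured by role, with bars of 1 SE and filled points for an adjusted p under 0.05. The filled points are *tcap*, *nexn* and *hrc* on the left and *mb* at 0.51, and most open points lie near -3.4 with bars of more than 1 unit.

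Among the calcium handling genes, *hrc* fell in DNK. *hrc* (ENSDARG00000045947), encoding the histidine-rich calcium-binding protein of the sarcoplasmic reticulum, had 322 and 122 counts in CtrlK and 6 and 1 counts in DNK. As with *tcap*, DNK1 was already near the floor. The log2 fold change was -6.12 ± 0.92 (edgeR adjusted p = 0.0099), and the call was lost without CtrlK1 (adjusted p = 0.071) and without DNK2 (0.062). *casq2*, the calcium-storing calsequestrin of the same compartment, had 3222 and 1268 counts in CtrlK and 164 and 0 in DNK, and the 0 in DNK2 allows up to 0.113 CPM. DNK1 and DNK2 therefore lay far apart, and the log2 fold change of -4.98 ± 2.15 was not called (edgeR adjusted p = 0.36).

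The release channel, the pump and its regulator followed the light chains. *ryr2b*, a ryanodine receptor, had 1112 and 534 counts in CtrlK and 117 and 21 in DNK (log2 fold change -3.76 ± 1.02, edgeR adjusted p = 0.14). *atp2a2a*, SERCA2, had 12855 and 4727 counts in CtrlK and 1776 and 405 in DNK, and *pln*, phospholamban, had 11880 and 4191 in CtrlK and 1742 and 99 in DNK. In all 3 genes the groups did not overlap, and each was lowest in DNK2. *slc8a1a*, the sodium/calcium exchanger, did not share this: it had 1306 and 810 counts in CtrlK and 1294 and 1008 in DNK, with overlapping groups. Its log2 fold change was -0.02 ± 0.31 (edgeR adjusted p = 0.98), with a sign that changed between scalings (0.068 with library totals alone).

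The 2 natriuretic peptide genes, which encode hormones made by heart muscle, differed from each other. *nppa* had 7580 and 3770 counts in CtrlK and 1449 and 30 in DNK, with the groups apart and DNK2 by far the lowest. *nppb* had 2543 and 1037 counts in CtrlK and 1548 and 548 in DNK, so that its groups overlapped. The log2 fold changes were -3.14 ± 2.23 and -0.96 ± 0.90 (edgeR adjusted p = 0.55 and 0.64), and that of *nppb* was 0.040 without CtrlK1.

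The muscle energy genes held the single member that rose. *mb* (ENSDARG00000031952), encoding the oxygen-binding protein myoglobin, had 296193 and 329933 counts in CtrlK and 476752 and 474003 counts in DNK. Both DNK libraries were above both CtrlK libraries, and the libraries within a group were close: normalised counts averaged 324204 ± 21418 for CtrlK against 460376 ± 22498 for DNK (SD, n = 2 each). This was 1.42-fold higher in DNK, with a log2 fold change of 0.51 ± 0.06 (edgeR adjusted p = 0.0034), and the call held in all 7 other settings and without any 1 library. *mb* thus rose across the same libraries in which *ckma*, the muscle creatine kinase, had 11804 and 4625 counts in CtrlK and 1094 and 129 in DNK. The mitochondrial creatine kinase *ckmt2a* had 1310 and 527 counts in CtrlK and 164 and 0 in DNK. Neither creatine kinase was called by edgeR (adjusted p = 0.35 and 0.47), although the groups of both were apart.

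Whether the members moved in 1 proportion was described by the ratio of each member between pairs of libraries. The pairs were taken in the order CtrlK1, CtrlK2, DNK1, DNK2, which is the order of the summed share without *mb* and was chosen after the levels were seen. In this order 28 of 36 members were lower at every step, as were 8.41% of all tested genes. Since the order was taken from the members themselves, the share of all genes is not a like background for them. Between CtrlK1 and CtrlK2, 2 libraries of 1 genotype, the median member differed by 3.00-fold (log2 ratio 1.58, quartiles of the members 1.06 and 1.74), whereas the median of all genes was 0.00 (quartiles -0.27 and 0.33). Of 35 members with at least 20 counts over the pair, 31 lay within 1 log2 unit of the members' median. Those outside were *myh6*, *tnnc1b*, *cmya5* and *mb*, all on the low side.

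Between CtrlK2 and DNK1 the median member differed by 2.85-fold (log2 ratio 1.51), which is close to the step between the CtrlK libraries. Here 24 of 35 members lay within 1 log2 unit of the median. *tcap* (4.97), *hrc* (4.24), *nexn* (4.06), *casq2* (2.95) and *desma* (2.59) were lower in DNK1 than the others were, in log2 ratios of CtrlK2 over DNK1. *tpm4a* (0.41), *mb* (-0.52), *nppb* (-0.57), *slc8a1a* (-0.67), *myh6* (-1.56) and *tnnc1b* (-2.80) lay on the other side. In DNK1 the 3 called genes *tcap*, *hrc* and *nexn* had 11, 6 and 5 counts. For CtrlK2 over DNK2 the log2 ratio of *nexn* was 2.66, below the members' median of 4.72, whereas *tcap* (6.22) and *hrc* (6.25) lay above it. The larger fall of *nexn* than of the median member thus rested on DNK1. Since replicate libraries differ far beyond counting noise, a deviation of a single gene in 1 pair of libraries has no test here.

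Between DNK1 and DNK2, again 2 libraries of 1 genotype, the median member differed by 7.84-fold (log2 ratio 2.97), the widest step of the 3. Members also scattered most here, with 16 of 33 within 1 log2 unit of the median. *mb* (-0.10), *tpm4a* (0.07), *slc8a1a* (0.25) and *tpm1* (0.23) hardly differed between the DNK libraries. *nppa* (5.46), *mybpc3* (4.76), *pln* (4.02) and *myh7* (4.00) were lower still in DNK2 than the median member. In *casq2*, *ckmt2a*, *csrp3* and *myom1b* the ratio rested on 0 to 3 counts in DNK2.

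Of the 32 members with a ratio in all 3 pairs, 15 stayed within 1 log2 unit of the median in each of these pairs. They were *myl7*, *vmhc*, *cmlc1*, *tnnt2a*, *tnni1b*, *tnnc1a*, *actc1a*, *actn2b*, *ttn.1*, *ttn.2*, *ldb3a*, *ldb3b*, *ryr2b*, *atp2a2a* and *ckma*. These are light chains, a heavy chain, troponins, actin, titins, Z-disc genes, a calcium release channel, SERCA2 and a creatine kinase. Together they took 1.49% and 0.486% of the CtrlK counts and 0.147% and 0.0183% of the DNK counts. From CtrlK1 to DNK2 they differed by 25.4-fold (*vmhc*) to 139-fold (*tnnc1a*). A further 8 members deviated in 1 pair and 7 in 2, and *myh6* and *mb* deviated in all 3. In the other pairs, 21 of 35 members lay within 1 log2 unit of the median for CtrlK1 over DNK1. For CtrlK1 over DNK2 it was 14 of 36, and for CtrlK2 over DNK2 15 of 36. Of the 15 named, *vmhc*, *actn2b* and *atp2a2a* lay outside in at least 1 of these other pairs.

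**Figure D4:**
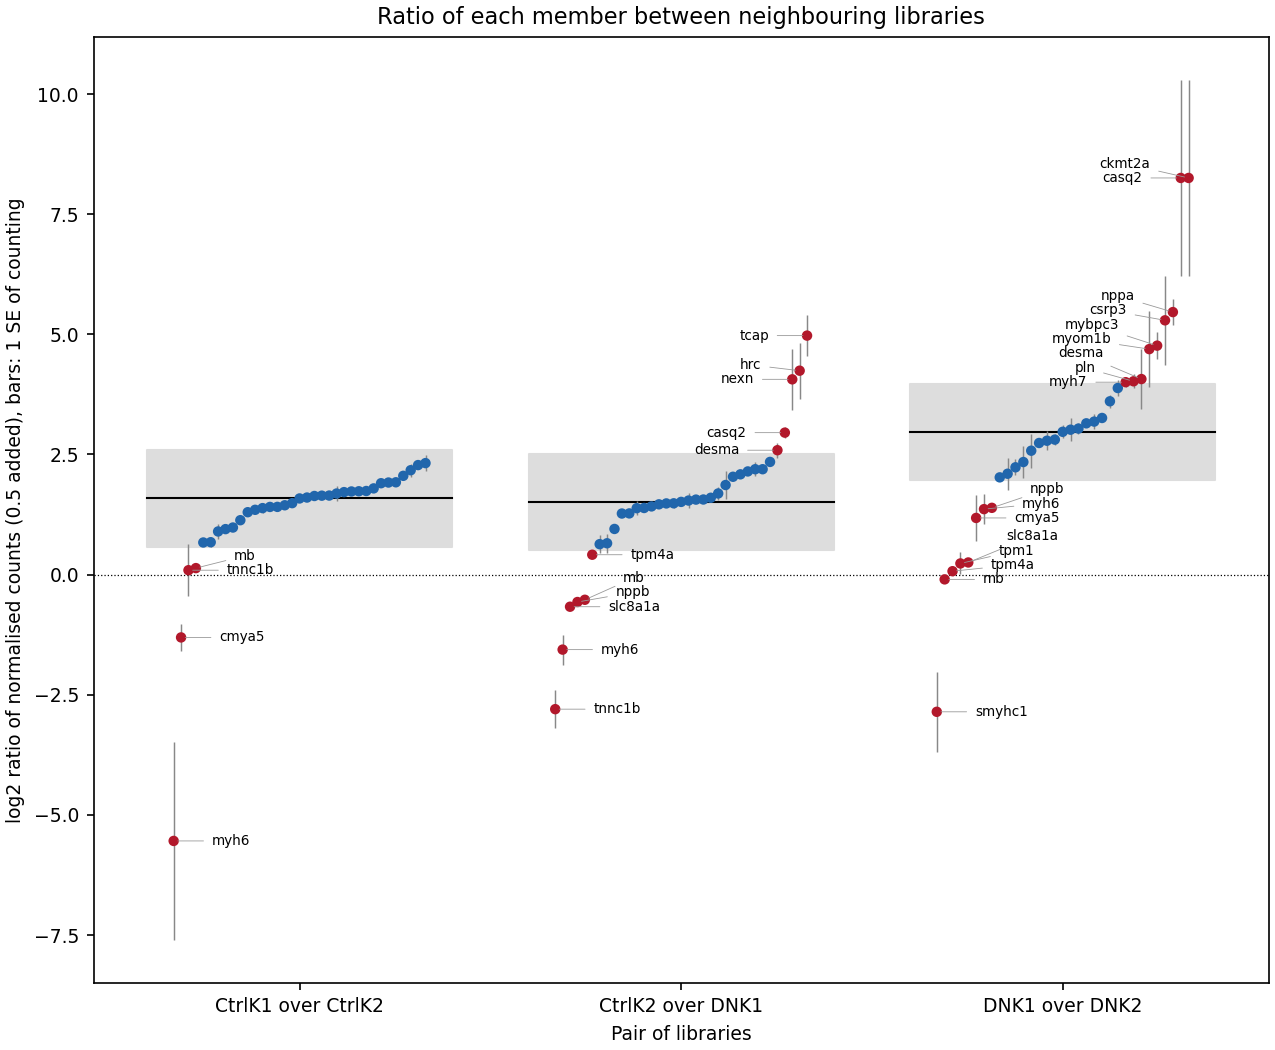
Log2 ratio of normalised counts of each member between pairs of libraries, with the median (line), the range within 1 log2 unit of it (grey) and bars of 1 standard error of counting. Red, named points lie outside the grey range: 4 of 35 for CtrlK1 over CtrlK2, 11 of 35 for CtrlK2 over DNK1 and 17 of 33 for DNK1 over DNK2.

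Genes outside the heart muscle lists were ranked by how closely their 4 normalised levels followed those of the median member. The 5 closest of 13338 genes were *ndrg4*, *gpr22a*, *rrad*, *aldoab* and *ppdpfa*, with a root mean square difference of 0.12 to 0.18 log2 units over the 4 libraries. *ndrg4*, for example, had 941 and 406 counts in CtrlK and 150 and 14 in DNK. It was highest in CtrlK1 and lowest in DNK2, as the median member was, which is what the ranking selects for.

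Most of the other heart muscle genes also had negative log2 fold changes, with medians nearer to 0 than that of the members. The median over all tested genes was -0.02. Of 33 tested further sarcomere and Z-disc genes, 5 fell (*myh7ba*, *myh7bb*, *pdlim5a*, *lmod2a* and *flnca*) and none rose by edgeR or DESeq2, with a median log2 fold change of -1.79. Of 17 further genes of excitation and calcium handling, *jph2*, *cacna1c* and *srl* fell and none rose by edgeR, with a median of -2.20. DESeq2 called 8 of them lower and 1 higher. *cacna1c*, the pore of the L-type calcium channel, had 101 and 52 counts in CtrlK and 0 and 2 in DNK, and *jph2*, which ties the sarcoplasmic reticulum to the cell membrane, had 260 and 114 in CtrlK and 23 and 8 in DNK. The groups of both were apart. Of 11 further muscle energy genes, *eno3* and *ckmb* fell, and all 11 had a negative log2 fold change (median -2.41). Of 11 cardiac transcription factors, *hand2*, *mef2ca* and *nkx2.5* fell (median -0.27), and 8 had a negative and 3 a positive log2 fold change. The sum of this list hardly differed, at 0.177% and 0.181% of the counts in CtrlK and 0.179% and 0.184% in DNK.

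The intercalated disc joins cardiomyocytes end to end. Of its 12 tested genes, *lmo7a* fell and *gja1b* rose, with a median of -0.41, and 8 had a negative and 4 a positive log2 fold change. Their sum was 0.0622% and 0.0658% of the counts in CtrlK and 0.0654% and 0.0605% in DNK. *gja1b*, a connexin of gap junctions, had 807 and 1190 counts in CtrlK and 3204 and 2413 in DNK, with both DNK libraries above both CtrlK libraries (log2 fold change 1.41 ± 0.16, edgeR adjusted p = 0.0032).

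Transcripts of other kinds also differed between the libraries, in other orders than the members did. The 12 mitochondrially encoded genes measured, which are abundant in heart muscle but present in every cell, took 6.66% and 4.29% of the counts in CtrlK and 2.59% and 2.72% in DNK. Both DNK libraries lay below both CtrlK libraries in all 12, against 28.6% of all tested genes. Their median log2 fold change was -1.15, and edgeR called 1 and DESeq2 11 of them lower. The 6 erythrocyte markers summed to 0.0194% and 0.0050% in CtrlK and 0.0003% and 0.0015% in DNK, of which *hbaa2* fell, and *hbaa2*, *alas2*, *slc4a1a* and *gata1a* were at 0 in DNK1. The median log2 fold change of these 6 was -4.86, and DESeq2 called 5 of them lower. Of 10 tested leukocyte markers 4 fell, and 8 had a negative and 2 a positive log2 fold change. Their list had sums of 0.0526% and 0.0568% in CtrlK and 0.0632% and 0.0407% in DNK, and *mpx* was at 0 in both DNK libraries. All 3 tested thrombocyte markers fell, with *itga2b* at 0 in both DNK libraries, as did 1 of 6 mural cell markers, *myh11a*. Of 9 tested markers of epicardium and fibroblasts 3 rose, with sums of 0.211% and 0.244% in CtrlK and 0.313% and 0.333% in DNK. The list was split, with 5 negative and 4 positive log2 fold changes and a median of -0.02. DESeq2 called 3 of these markers higher and 2 lower. Their part in the differences of the members was not tested.

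Skeletal muscle shares many of these gene families. Of its 13 matched markers 3 were tested and none was called, and their sum was 0.0578% and 0.0324% in CtrlK and 0.0152% and 0.0018% in DNK. Nearly all of it came from the muscle actins *acta1b* and *acta1a*, which resemble *actc1a* in sequence, whereas the fast myosins *myhz1.1*, *myhz1.2*, *myhz1.3* and *myhz2* had at most 7 counts in any library. *actn3a* and *pvalb1* were at 0 in every library.

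**Figure D5:**
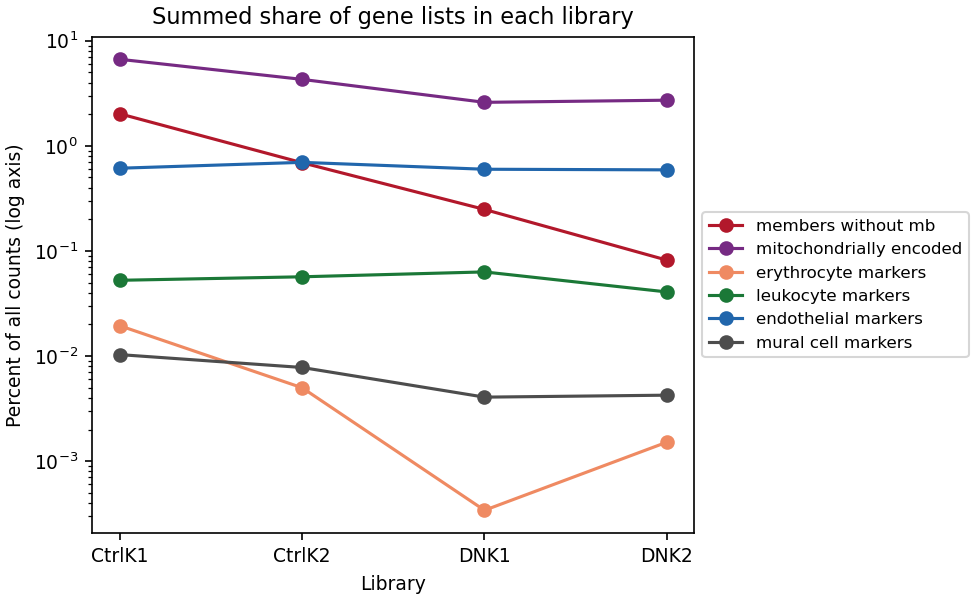
Percent of all counts (log axis) taken by the members without *mb*, by the mitochondrially encoded genes and by 4 marker lists in the 4 libraries. The endothelial markers stay between 0.591% and 0.696%, while the members go from 2.02% to 0.0818%. Most of the members' share in DNK2 is *tpm4a*.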

How the data were processed

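After a quality check with FastQC, the authors aligned reads to GRCz11 by HISAT2 and assigned the uniquely mapped ones to Ensembl genes by featureCounts (versions 0.11.9, 2.2.1 and 2.0.1 in the submitters' processing notes). The deposited values were raw counts per gene for each library, without normalization. Whether counting used strand is not given in the sources used here, so overlapping and antisense genes are uncertain, as are near-identical copies. Libraries were grouped by their labels.

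Gene names came from RefSeq tables (names only). Of the 38 matched members, 20 had the same symbol there, 11 a human-style symbol placed by its neighbours, 2 a name in a supplementary table of the study, 1 an older name, and 4 were told apart as adjacent pairs. Neighbour placing gave the same name in 95.1% of 1063 genes that could be compared.

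Counts were filtered with filterByExpr, scaled by TMM (factors 0.942 to 1.04) and tested with edgeR 4.0.16 (robust quasi-likelihood F-test, group as the only term, Benjamini-Hochberg over 17151 genes), in R 4.3.3. DESeq2 1.42.0, the test of the authors, was an alternative. Normalised counts are TMM-scaled, and replicate counts differed beyond sampling noise (chi-square per degree of freedom 55.3 in CtrlK and 24.7 in DNK). Ratios between libraries had 0.5 added. The heavy chain ratio was tested by an exact permutation test (SciPy 1.17.1). Counts have no molecular identifiers, so floors of 3 counts cover counting error only. On simulated data for this comparison (16490 genes), 35% of genes changed by 1 log2 unit and 81% of those changed by 2 were recovered, with 8.66% false calls among all calls. The simulation gave genes of like abundance the same spread. These shares therefore do not apply to members with a larger spread, such as *myl7* with an SE of 1.85.

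All members were accounted for. Genes of the other lists were named when called (at most 5 per list), as the highest of their list, or, in marker lists, to show which were near 0, and the last of these were chosen after their values were seen. The members, lists and tests were chosen with earlier results of these data known. Gene lengths were not used here, so the heavy chain ratios are ratios of counts, read only for how they differ between libraries and not as relative levels of the genes. The alternatives were other scalings, count filters, DESeq2, a replicate block and leaving out each library.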

Additional observations from a re-analysis of the deposited data

How the results depend on the processing

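Over all genes, 1315 of 24155 were called higher and 1775 lower when every gene with at least 1 count was tested. With DESeq2, 1271 and 1432 of 17151 genes were called higher and lower (7.41% and 8.35%). With 1 library left out, 354 to 425 were called higher and 328 to 567 lower. Of the members, edgeR called 3 lower, against 29 with every gene of at least 1 count tested, 13 with DESeq2, 0 among genes with at least 10 counts in every library, which drops *tcap*, *nexn* and *hrc* from the test, and 0 to 4 with 1 library left out (0 without DNK2, 1 without CtrlK1). In the fit of 29, the adjusted p of *myl7* came out at 0 although its CtrlK libraries were 3.74-fold apart, and the cause was not tested. The replicate numbers could pair the samples only in 2 pairs. Deviations from the group means correlated by 0.09 between equal numbers over 17151 genes, and with the replicate block 17 members were called lower (5.22% of all genes). The members themselves mostly shared a direction, with 33 of 35 higher in CtrlK1 than in CtrlK2 and 31 of 33 higher in DNK1 than in DNK2. Since most members moved together, these counts are not separate observations and do not bear on the pairing. Whether replicate numbers pair the libraries was not tested.

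The median log2 fold change of the members lay between -5.73 (without DNK1) and -2.35 with 1 library left out. The share of counts of all members, with a log2 ratio of -0.40, lay between -0.75 and 0.050 with 1 library left out (0.050 without CtrlK1), and was -3.04 with *mb* left out, a setting chosen after seeing the data. The log2 ratio of *myh6* to *vmhc*, with a difference of 6.66, lay between 3.55 and 9.77 with 1 library left out and was 4.87 with 5 added to each count. Against *myh7* it was 8.96 and against the sum of both 8.89, settings added after seeing the data. With 0 added it could not be had, since *myh6* had 0 counts in CtrlK1.

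For single members, 320 of 386 comparisons kept their direction and their side of the threshold, 53 came to a call, 6 lost one and 7 changed sign. The 53 include the calls gained when every gene with at least 1 count was tested, where 29 members were called lower against 3 in the main fit. The sign changed for *slc8a1a* (0.068 with library totals, 0.050 with the replicate block, -0.43 to 0.55 with 1 library left out), *nppb* (-1.82 to 0.040, the latter without CtrlK1) and *smyhc1* (-1.56 to 6.77, with -0.41 without CtrlK2 and -1.56 without DNK2). Leaving out DNK2 removed every lower call among the members, and genes near 0 counts in DNK were limited by depth.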

Other observations

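The second phospholamban gene, *pln2*, is not a member and was named after its values were seen. It had 2206 and 3135 counts in CtrlK and 2681 and 2063 counts in DNK. Its groups overlapped, with a log2 fold change of -0.26 ± 0.14 (edgeR adjusted p = 0.34), whereas *pln* had 11880 and 4191 against 1742 and 99 counts in the same libraries.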
